A study of Mus musculus with 16 samples.

Results

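The muscle nicotinic acetylcholine receptor genes and the core genes of the postsynaptic apparatus were followed in ATAC-seq peak lists of C2C12 iMyoD1 myoblasts. The 8 genes, of 21951 protein-coding genes in GENCODE M21, were Chrna1, Chrnb1, Chrnd, Chrng, Chrne, Musk, Rapsn and Dok7, and they were taken by name. Each gene was given a window of its gene body plus 20 kb on each side in the mm10 build. The windows of the neighbouring genes Chrnd and Chrng overlap, which left 7 merged windows of 465 kb in total. Peaks of all libraries were merged where they overlapped into 80290 union regions, and 48 of them lay in the windows. To set list length aside, the 14710 strongest peaks of each list, ranked on −log10 p, were also compared (the equal-length lists), and then 22 of 26213 regions lay there.

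C2C12 is a mouse skeletal muscle myoblast line. The iMyoD1 population carries its endogenous MyoD1 together with an integrated transgene for Halo-tagged MyoD1 under a doxycycline-inducible promoter, and it is polyclonal. Doxycycline induces the transgene in only part of the nuclei. Doxycycline (+dox) or its vehicle (no dox) was given for 24 h, either in growth medium (GM, proliferating) or during serum starvation begun together with it (DM, differentiating). All groups carry the transgene, and GM wells were seeded with 75000 cells against 300000 in DM, so medium and density cannot be told apart. Replicate 1 of both DM groups was left out, so the GM groups had 4 libraries each and the DM groups 3 each, 14 in all. This exclusion follows the methods of the study. The labels call the libraries of a group biological replicates without saying how their cultures were separated, so p-values measure the spread between these libraries.

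At the neuromuscular junction, acetylcholine released by the motor neuron opens a pentameric cation channel in the muscle membrane. Its fetal form is built from the alpha (Chrna1), beta (Chrnb1), delta (Chrnd) and gamma (Chrng) subunits, and in the adult receptor epsilon (Chrne) replaces gamma. Clustering of the receptor under the nerve is driven by nerve-derived agrin, which binds Lrp4 and activates the receptor tyrosine kinase MuSK (Musk), with Dok7 as its cytoplasmic activator and rapsyn (Rapsn) as the scaffold that anchors receptors. Several of these genes are regulated through E-boxes, the sites bound by MyoD1 and related factors, and through ETS-type N-boxes.

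The stretches below are from promoters of these genes, and only those that hold a motif marked in capitals are printed. Each reads 5′ to 3′ on the strand of its gene in GRCm38, the assembly behind mm10. Capitals mark CAGCTG, the E-box preferred by MyoD1, and CCGGAA, the N-box core, on either strand. The Chrna1, Chrng, Chrne and Musk stretches come from the RefSeq promoter table (GRCm38.p6) and begin 250 bases before the RefSeq start. Bases at their ends were dropped until none lay in an untranslated region annotated by GENCODE. The Chrng stretch lies inside the GENCODE gene, which starts further upstream. The stretches of Chrnd and Rapsn end before the GENCODE start. Dok7 and Chrnb1 held neither motif in the same RefSeq promoter table and are not printed.
Chrna1 promoter: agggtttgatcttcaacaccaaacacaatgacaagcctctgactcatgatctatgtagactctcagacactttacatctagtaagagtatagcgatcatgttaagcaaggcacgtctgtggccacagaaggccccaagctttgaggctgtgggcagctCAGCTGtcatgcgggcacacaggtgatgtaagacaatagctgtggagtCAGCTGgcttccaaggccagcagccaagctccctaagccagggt
Chrng promoter: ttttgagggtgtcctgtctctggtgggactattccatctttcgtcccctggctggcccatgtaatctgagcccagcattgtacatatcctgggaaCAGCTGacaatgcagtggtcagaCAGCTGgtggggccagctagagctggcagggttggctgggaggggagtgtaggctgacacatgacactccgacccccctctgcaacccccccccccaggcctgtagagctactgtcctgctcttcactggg
Chrne promoter: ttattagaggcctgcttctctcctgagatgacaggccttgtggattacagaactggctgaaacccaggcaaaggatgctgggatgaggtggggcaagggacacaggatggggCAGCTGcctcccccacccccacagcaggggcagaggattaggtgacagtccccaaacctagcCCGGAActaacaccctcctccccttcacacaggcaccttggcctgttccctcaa
Musk promoter: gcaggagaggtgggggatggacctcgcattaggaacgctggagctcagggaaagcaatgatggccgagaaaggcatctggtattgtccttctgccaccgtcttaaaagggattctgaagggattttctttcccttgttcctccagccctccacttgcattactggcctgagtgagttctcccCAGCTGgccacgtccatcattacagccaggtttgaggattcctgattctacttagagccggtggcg
Chrnd promoter: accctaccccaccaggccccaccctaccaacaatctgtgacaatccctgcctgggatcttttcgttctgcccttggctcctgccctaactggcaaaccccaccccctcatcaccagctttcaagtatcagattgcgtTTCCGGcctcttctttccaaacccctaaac
Rapsn promoter: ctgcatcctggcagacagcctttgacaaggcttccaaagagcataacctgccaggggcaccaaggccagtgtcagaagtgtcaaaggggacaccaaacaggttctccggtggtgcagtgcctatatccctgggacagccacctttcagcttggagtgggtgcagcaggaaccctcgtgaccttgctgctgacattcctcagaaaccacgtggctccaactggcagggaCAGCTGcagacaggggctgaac
The stretches lie at chr2:73580339-73580588 on the minus strand (Chrna1), chr1:87205561-87205809 on the plus strand (Chrng), chr11:70619217-70619444 on the minus strand (Chrne), chr4:58285712-58285959 on the plus strand (Musk), chr1:87190440-87190606 on the plus strand (Chrnd) and chr2:91035370-91035619 on the plus strand (Rapsn). CAGCTG began 92 and 44 bases before the start of Chrna1, 155 and 132 before Chrng, 138 before Chrne, 68 before Musk and 22 before Rapsn. The N-box core began 76 bases before the start of Chrne and, on the other strand, 30 before Chrnd.

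A second set is shown because 3 of these regions away from the promoters were called in a comparison below, and that upstream of Chrne is the nearest to a gene with no promoter peak. Each spans 100 bp on each side of the summit, and capitals mark CAGCTG and TGANTCA, the AP-1 site.
Musk intron: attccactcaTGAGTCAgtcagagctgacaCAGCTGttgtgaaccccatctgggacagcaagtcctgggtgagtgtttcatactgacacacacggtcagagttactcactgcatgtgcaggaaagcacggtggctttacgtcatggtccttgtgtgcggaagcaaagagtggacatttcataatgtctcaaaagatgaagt
Dok7 upstream: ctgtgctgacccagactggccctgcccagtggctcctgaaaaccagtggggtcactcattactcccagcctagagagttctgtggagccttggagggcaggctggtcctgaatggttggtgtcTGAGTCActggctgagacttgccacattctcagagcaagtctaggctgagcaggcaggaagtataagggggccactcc
Chrna1 intron: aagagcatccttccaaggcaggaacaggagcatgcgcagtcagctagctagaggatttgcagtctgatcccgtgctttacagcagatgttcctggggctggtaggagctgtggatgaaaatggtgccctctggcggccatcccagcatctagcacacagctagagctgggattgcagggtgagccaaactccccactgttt
Chrne upstream: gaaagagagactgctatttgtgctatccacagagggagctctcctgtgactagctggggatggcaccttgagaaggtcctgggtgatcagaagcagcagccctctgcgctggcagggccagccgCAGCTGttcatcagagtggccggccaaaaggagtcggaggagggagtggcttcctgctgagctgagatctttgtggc
They lie at chr4:58288866-58289066 on the plus strand, chr5:35037568-35037768 on the plus strand, chr2:73572556-73572756 on the minus strand and chr11:70622065-70622265 on the minus strand, in that order. The Chrna1 intron stretch held neither motif.

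The deposited lists differed in length. Their mean length was higher with dox, at 46863 against 31702 peaks in GM and 49026 against 29490 in DM. Dox and list length thus cannot be told apart in counts from the deposited lists. Lists held 14710 to 49300 peaks in GM no dox, 36531 to 58587 in GM +dox, 23690 to 40599 in DM no dox and 46241 to 51340 in DM +dox. Genome-wide background coverage, recovered from fold enrichment and p of the peaks, was 0.339 to 0.992, 0.377 to 0.866, 0.511 to 0.901 and 0.732 to 1.13 fragments per base in the same order. The weakest peaks of a list had 4 to 6 fragments at the summit, so a region without a peak had signal below the calling limit of that library and need not be closed. Of the myoblast markers, the Myod1 promoter had a peak in 14 of 14 libraries, Des (desmin) in 13, Cdh15 in 10, Itga7 and Pax7 in 9 each and Myf5 in 6. Of the markers of other cells, Sox10 and S100b (Schwann cells), Ptprc (leukocytes) and Cdh5 (endothelium) had a promoter peak in 0 libraries, Rbfox3 and Cd68 in 1 each, Snap25 in 2 and Pecam1 in 8. The promoter of Syt1 (neuron) had one in 14, and what these peaks come from was not tested.

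The number of peaks in the windows broadly followed the length of the lists. The 7 merged windows held 12, 28, 17 and 38 peaks in GM no dox, 45, 36, 37 and 32 in GM +dox, 20, 16 and 35 in DM no dox, and 33, 36 and 39 in DM +dox. The groups overlapped in every comparison, and the low counts of 12 to 20 came from the shorter lists. The order was not strict, since GM +dox replicate 4 held 32 window peaks and GM no dox replicate 2 held 28 from a longer list. The dox difference in means was 13.75 peaks in GM and 12.3 in DM; within replicate numbers 1 and 2 it was 20.5 and 13, and within numbers 3 and 4 it was 7 and 12, with 1 library per group for DM in the former. Relative to list length the windows held 0.643 to 0.876 peaks per 1000 in any library, with means of 0.757 (SD 0.048, n = 4), 0.807 in GM +dox, 0.789 in DM no dox and 0.737 in DM +dox. In the equal-length lists every library held 10 to 13 window peaks, with means of 11.0 ± 1.15 (SD, n = 4), 11.5 ± 1.29 (n = 4), 12.3 ± 1.15 (n = 3) and 12.0 ± 1.73 (n = 3).

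**Figure D1:**
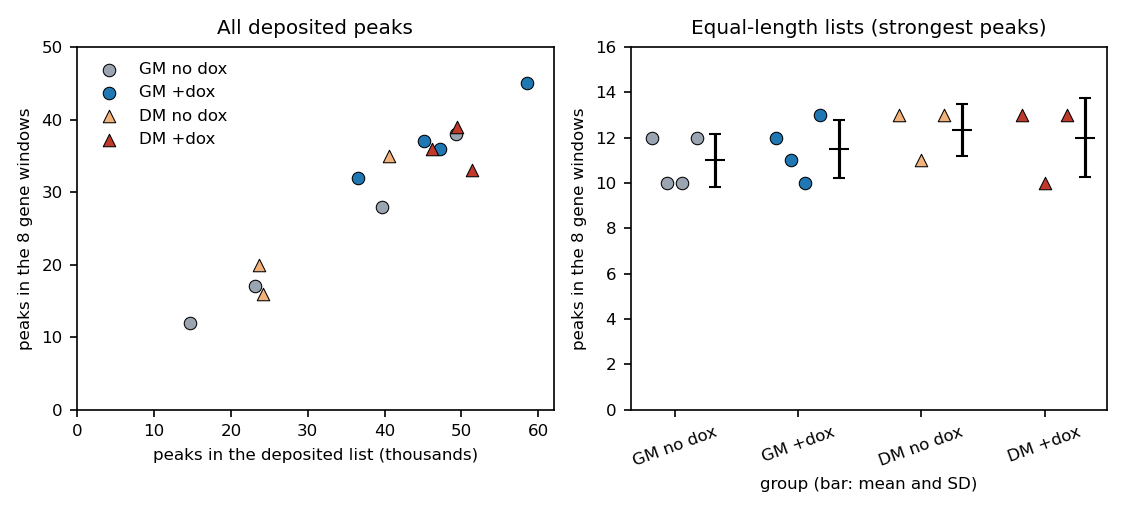
Peaks in the 8 gene windows per library. Left, the count against the number of peaks in the deposited list (in units of 1000), 1 point per library. Right, the count in the 14710 strongest peaks per list, with the group mean and SD as bars. On the left the counts run from 12 to 45 and broadly follow list length, and on the right every library lies between 10 and 13.

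The regions differed in how widely they were shared. Of the 48 regions, 8 were within 1 kb of a start site of one of the 8 genes, 9 lay in their gene bodies, 10 at promoters of other genes, 8 in other gene bodies and 13 between genes. A peak was present in all 14 libraries at 10 regions and in only 1 library at 8 regions. Among the 8 promoter regions, the number with a peak was 3, 7, 4 and 8 in the GM no dox libraries and 6, 8, 7 and 7 in GM +dox. It was 3, 3 and 7 in DM no dox and 7, 6 and 8 in DM +dox. The 9 gene-body regions had a peak in 0, 3, 0 and 5 regions in GM no dox and in 9, 5, 6 and 5 in GM +dox, against 1, 1 and 4 in DM no dox and 3, 5 and 5 in DM +dox. The low counts in no dox libraries again came with their shorter lists.

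**Figure D2:**
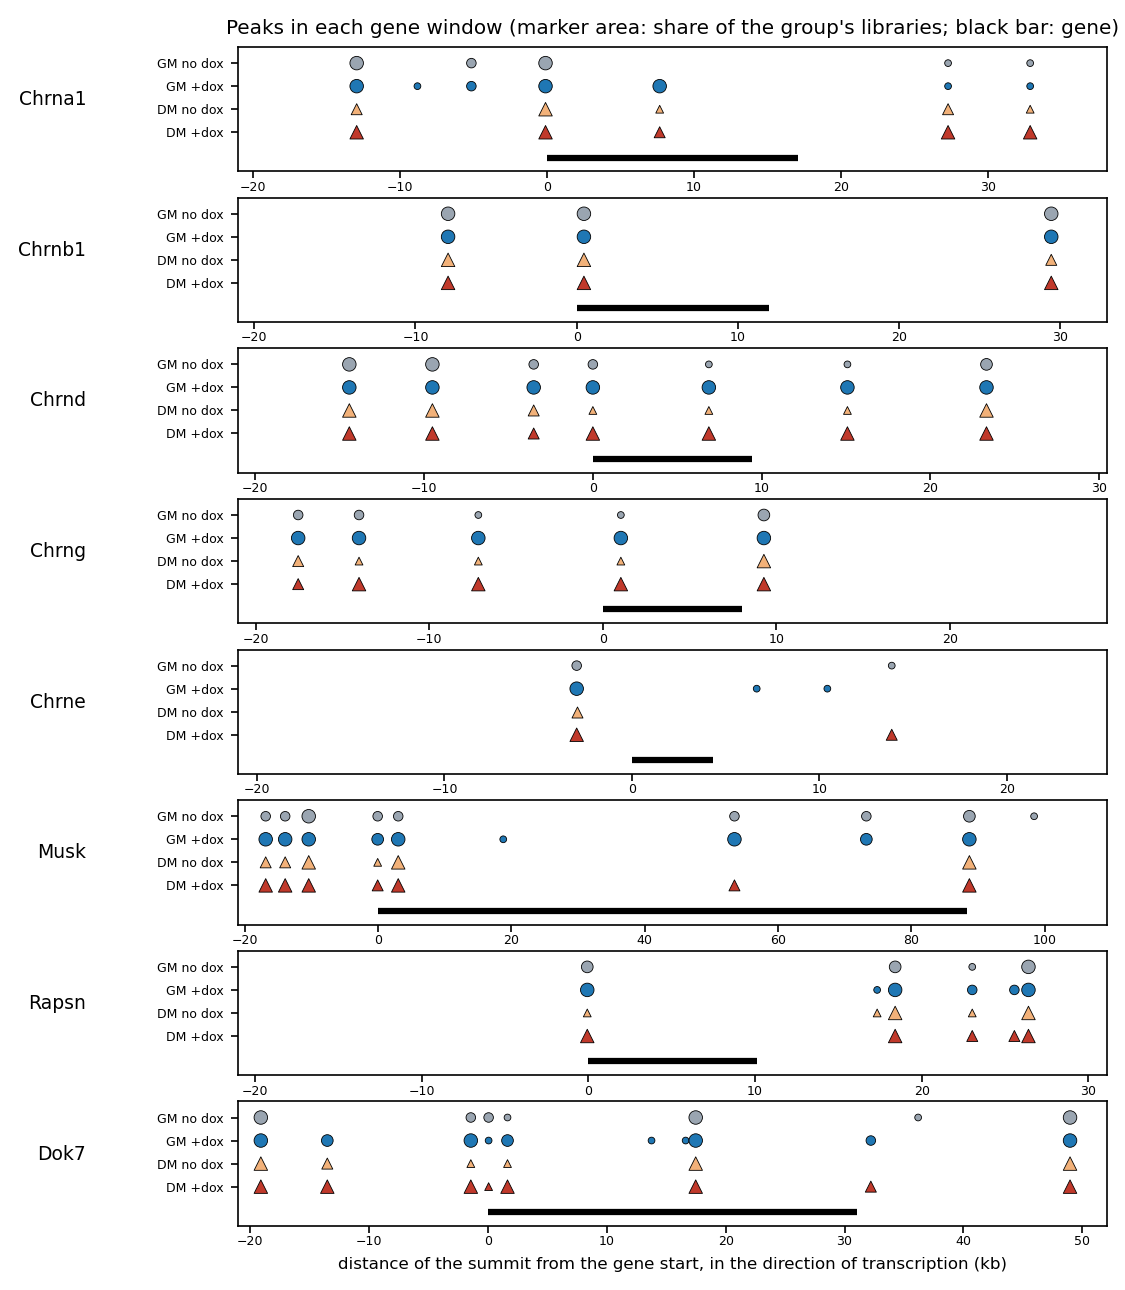
Position of the peak regions in each gene window. The x axis gives the distance of the summit from the gene start in the direction of transcription (kb), rows are the 4 groups, marker area is the share of the group's libraries with a peak, and the black bar is the gene. Chrna1, Chrnb1 and Dok7 show a region near an annotated start in every group at full size, and Chrne shows none at its start.

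Among the receptor subunits, Chrna1 and Chrnb1 had constitutive promoter peaks. Chrna1 (ENSMUSG00000027107.3, chr2:73563215-73580338, minus strand) encodes the alpha subunit that binds acetylcholine, and its promoter region at chr2:73580041-73581000 was called in all 14 libraries and also in every equal-length list. Its fold enrichment over the local background was 7.87, 14.1, 8.37 and 13.0 in GM no dox and 16.6, 17.2, 11.2 and 10 in GM +dox. It was 10.4, 8.63 and 11.4 in DM no dox and 20.9, 14.3 and 12.8 in DM +dox. The DM +dox values all lay above the DM no dox values before libraries were centred, a step described with the tests below, while the GM groups overlapped. After centring the DM groups overlapped too, with log2 values of −0.317 to −0.033 in DM no dox and −0.251 to 0.163 in DM +dox. Chrnb1 (ENSMUSG00000041189.9, chr11:69784036-69795943, minus strand), the beta subunit, had the highest enrichment among the receptor promoters. Its region at chr11:69795272-69796039, with the summit in an intron 413 bp from an annotated start, was in every equal-length list and ranked in the top 0.55% to 7.21% of the deposited lists. Fold enrichment there was 8.48, 21.8, 13.1 and 20.4 in GM no dox, 20.3, 23.1, 15.9 and 17.0 in GM +dox, 14.9, 14.2 and 18.5 in DM no dox and 24.5, 19.0 and 17.3 in DM +dox.

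The Chrna1 gene body held a second, weaker region with another pattern. At chr2:73572566-73572927, in an intron 7.7 kb inside the gene, no GM no dox library had a peak. All 4 GM +dox libraries had one, with 9, 11, 8 and 21 fragments at the summit and fold enrichments of 7.12, 6.73, 4.51 and 10.8. In DM it was found in 1 of 3 no dox libraries and 2 of 3 +dox libraries, and it was absent from every equal-length list.

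The delta and gamma genes lie side by side on chromosome 1, Chrnd (ENSMUSG00000026251.13) at 87190607-87200070 and Chrng (ENSMUSG00000026253.14) at 87204657-87212694, both on the plus strand. Their promoter regions were called less often than those of Chrna1 and Chrnb1. The Chrnd promoter region at chr1:87190440-87190900 had no peak in GM no dox replicates 1 and 3, with fold enrichments of 5.24 and 5.04 in replicates 2 and 4. In GM +dox the values were 11.1, 5.85, 7.23 and 6.77. Only replicate 4 of DM no dox had a peak (6.87), against 14.8, 12.7 and 11.6 in DM +dox. Chrng, the fetal subunit, had its region at chr1:87205346-87205833, which covers the RefSeq start inside the GENCODE gene. In GM a peak was found there in 1 of 4 libraries without dox (7.34) and in all 4 with dox (10.7, 12.8, 5.98 and 7.18). In DM it was found in 1 of 3 without dox (5.70) and in all 3 with dox (14.4, 5.95 and 8.99). A region over a coding exon of Chrnd at chr1:87197193-87197703 had the same spread, in 1, 4, 1 and 3 libraries of the 4 groups. In each no dox group the library with these peaks included the one with the longest list, and none of the 3 regions was found in more than 1 of the equal-length lists.

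Upstream of Chrnd, 2 intergenic regions were called in all 14 libraries. The region with the highest median enrichment of the Chrnd window was at chr1:87180772-87181518, 9.5 kb before the start, at 6.81 to 20.5. The region 14.4 kb before the start, at chr1:87175844-87176419, was weaker, with fold enrichments of 5.77, 6.13, 5.05 and 7.37 in GM no dox, 10.6, 8.53, 5.36 and 7.07 in GM +dox, 8.11, 7.59 and 10.3 in DM no dox and 11.2, 8.56 and 8.67 in DM +dox. Every DM library exceeded every GM no dox library there before centring, but not after it. The centred log2 value of GM no dox replicate 1 was −0.159, above those of all DM libraries (−0.868 to −0.385). How many of all regions separate in this way was not counted.

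Chrne (ENSMUSG00000014609.16, chr11:70614883-70619216, minus strand), the adult subunit, had no promoter peak in any library. The nearest region, at chr11:70621871-70622741 and 2.9 kb before its start, was called in GM in 2 of 4 libraries without dox and 4 of 4 with it, and in DM in 2 of 3 and 3 of 3. Fold enrichment was 9.27 and 8.80 in GM no dox, 13.2, 9.85, 9.17 and 9.94 in GM +dox, 8.66 and 12.3 in DM no dox and 14.6, 13.2 and 15.3 in DM +dox. In equal-length lists it was found in 0, 1, 2 and 2 libraries of the same groups.

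The genes of receptor clustering differed from each other. Musk (ENSMUSG00000057280.15, chr4:58285960-58374303, plus strand) is the longest of the 8 genes, and its promoter region at chr4:58285626-58286410 was weak, with a peak in 2, 3, 1 and 2 libraries of the 4 groups and fold enrichments of 4.31 to 8.33. Stronger peaks lay around it. The region 10.4 kb upstream (chr4:58275268-58276133) was called in all 14 libraries at 6.60, 15.4, 8.38 and 13.7 in GM no dox, 15.4, 15.4, 13.99 and 10.1 in GM +dox, 8.85, 7.60 and 11.1 in DM no dox and 16.6, 11.1 and 11.0 in DM +dox. The groups overlapped in all 4 comparisons.

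Within Musk, 3 intronic regions had different patterns. The intron region 3.0 kb inside the gene (chr4:58288761-58289159, printed above as Musk intron) had fold enrichments of 10.4 and 11.5 in GM no dox replicates 2 and 4 and no peak in replicates 1 and 3. It reached 16.9, 15.5, 7.89 and 8.24 in GM +dox, 10.8, 9.41 and 12.6 in DM no dox and 17.3, 12.2 and 9.96 in DM +dox. Among equal-length lists it was in 0 of 4 without and 2 of 4 with dox in GM, and in 3 of 3 without and 1 of 3 with dox in DM. The other intronic regions were found mainly in GM. The region 73.2 kb inside the gene (chr4:58359055-58359578) had peaks of 9.63 and 10.53 in GM no dox and of 7.99, 8.53 and 8.04 in GM +dox, and no DM library had a peak. The region 53.5 kb inside (chr4:58339123-58339667) had a peak in 2 of 4, 4 of 4, 0 of 3 and 2 of 3 libraries.

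Rapsn (ENSMUSG00000002104.11, chr2:91035620-91045729, plus strand) had a single region at its promoter, chr2:91035314-91036020. Fold enrichment was 13.7, 5.64 and 12.4 in GM no dox replicates 2, 3 and 4, with no peak in replicate 1, and 20.3, 15.4, 15.2 and 14.3 in GM +dox. Only DM no dox replicate 4 had a peak (13.6), against 24.5, 20.4 and 18.2 in DM +dox. In both media each +dox value was above each no dox value among the libraries with a peak, before centring. Uncentred fold enrichment also rose with dox over all regions with a peak in every library, by a median log2 difference of 0.41 in GM and 0.49 in DM. The Rapsn promoter lacked a peak in some libraries and was not tested on centred values. In equal-length lists the Rapsn promoter was found in GM in 1 of 4 libraries without dox and 4 of 4 with dox, and in DM in 1 of 3 without and 3 of 3 with it. It did not meet the all-or-none criterion described below unless replicate 2 of GM no dox (for GM) or replicate 4 of DM no dox (for DM) was left out.

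Dok7 (ENSMUSG00000044716.12, chr5:35056766-35087839, plus strand) had little signal at its first start and a constitutive region inside the gene. The first start region (chr5:35056686-35056950) was called in 2, 1, 0 and 1 libraries of the 4 groups, at 3.51 to 6.07. The internal region at chr5:35073707-35074553, with its summit 712 bp from an annotated start, was in all 14 deposited and all equal-length lists. Fold enrichment there was 7.66, 15.2, 9.43 and 13.5 in GM no dox, 18.2, 18.7, 13.1 and 13.5 in GM +dox, 12.1, 10.9 and 14.3 in DM no dox and 23.9, 15.9 and 16.6 in DM +dox. The region 19.1 kb upstream (chr5:35037369-35038108), in an intron of Rgs12 and printed above as Dok7 upstream, had 16, 48, 19 and 51 fragments at the summit in GM no dox and 50, 77, 49 and 33 in GM +dox. It had 17, 12 and 16 in DM no dox and 48, 29 and 32 in DM +dox, where the DM and GM ranges overlapped under both treatments. In equal-length lists it was found in 3 of 4 and 4 of 4 GM libraries and in 0 of 3 DM libraries of either treatment.

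**Figure D3:**
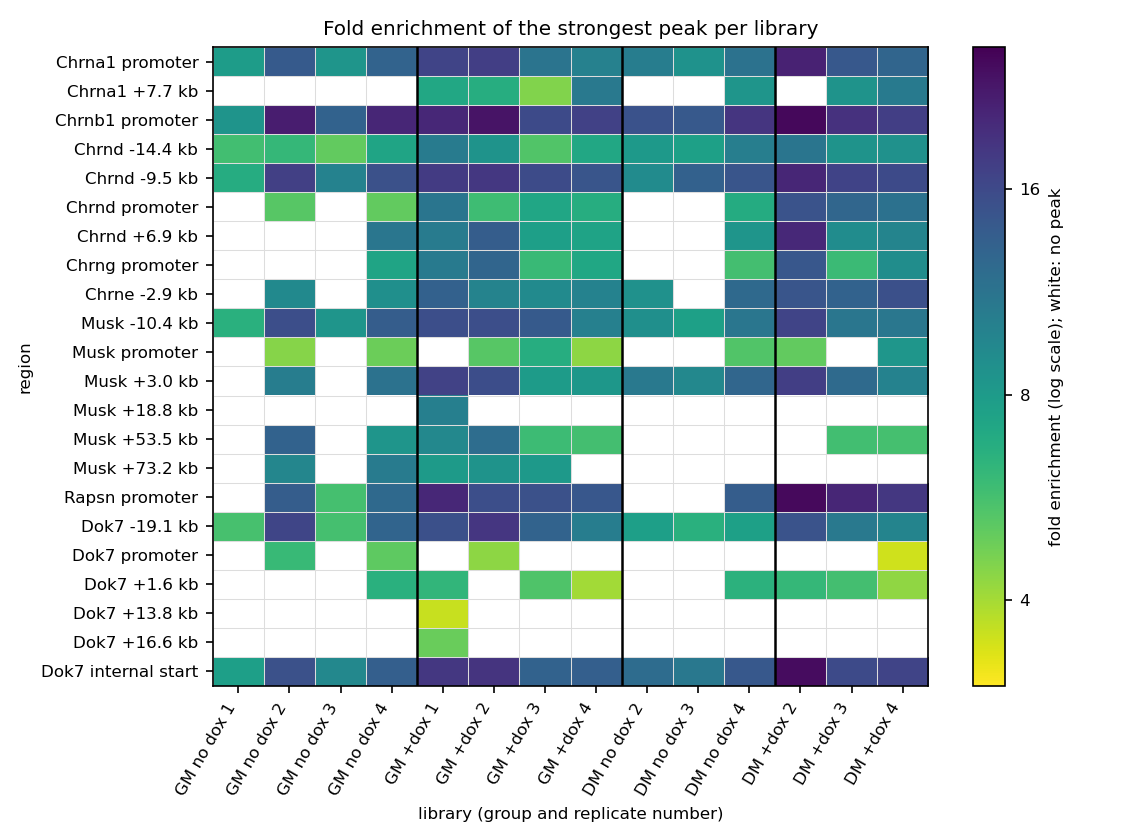
Fold enrichment (log colour scale) of the strongest peak per library in 22 regions at or near the 8 genes, with white for no peak; columns are the 14 libraries by group and rows are regions named by distance from the gene start. Chrna1, Chrnb1 and Dok7 internal start rows are filled throughout, while the Chrnd, Chrng and Rapsn promoter rows are filled in every +dox library and in 1 to 3 libraries of each no dox group.

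In proliferating cells, the comparison of +dox with no dox asks whether accessibility at these genes differs with induction. No library came from cells without the transgene, so added MyoD1 and doxycycline itself cannot be told apart. The Chrnd window held 2, 5, 3 and 7 peaks in GM no dox and 8, 7, 7 and 7 in GM +dox, and the groups overlapped at 7. In the deposited lists all 8 genes had a higher mean count with dox (median difference 2.13 peaks, 0.75 over all coding genes tested), but in 0 of 8 windows were the groups apart, against 1.33% of 17325 genes. These differences are in peaks and are not scaled to the count without dox. That count had means of 0.75 (Chrne) to 5.0 (Musk) in the windows, against 1.965 per coding gene. No gene passed after Benjamini-Hochberg adjustment in the two-sided exact permutation test (lowest adjusted p = 0.824), with 231 genes at an unadjusted p below 0.05. In equal-length lists 0 of 8 windows were apart, against 0.368% of genes, and 52 genes had such a p. Same-numbered libraries deviated together in this comparison, and within the 4 pairs the Chrnb1 window was higher with dox in every pair (by 3, 1, 1 and 1 peaks), 1 of 8 windows with all pairs in 1 direction, against 3.02% of genes (a criterion added after the data were seen). In equal-length lists this was 0 of 8, against 0.921%. In the deposited lists the Chrnb1 window held 3 union regions, each with a peak in all 4 libraries of both GM groups. Its added peaks thus lay within regions that were already called without dox. Without GM no dox replicate 4, which had the longest list of its group, Chrna1, Chrnb1, Chrnd and Chrng were higher with dox in the deposited lists, where 10.6% of all genes were called. Without GM no dox replicate 3, Chrna1 was lower in equal-length lists (0.725% of genes called).

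A region was called all-or-none when all libraries of one group had a peak in it and no library of the other did. With dox in GM this was met by 1 of 48 regions in the deposited lists, the Chrna1 intron region, which was higher, against 0.446% of all regions. In equal-length lists 0 of 19 regions met it, against 0.287%. Without GM no dox replicate 4 the count was 3, adding the Chrnd exon and Chrng promoter regions, and without GM +dox replicate 4 it was 2. In equal-length lists it was 1 without GM no dox replicate 2 (Rapsn promoter, higher) or replicate 3 (a region 12.9 kb upstream of Chrna1, lower).

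In differentiating cells no window separated the groups either. The Musk window held 4, 4 and 6 peaks in DM no dox and 6, 6 and 7 in DM +dox, and the Dok7 window 4, 3 and 6 against 6, 7 and 9. All 8 means were higher with dox (median difference 1.83 peaks, 1.00 over all genes), but 0 of 8 windows were apart while 19.7% of 17105 genes were. Here too the differences are not scaled to the count without dox. Its means were 0.667 (Chrne) to 4.667 (Chrnd and Musk) in the windows, against 1.9 per coding gene. With 3 against 3 libraries the smallest two-sided exact permutation p is 0.1, the lowest adjusted p was 0.508, and 0 genes had an unadjusted p below 0.05. In equal-length lists 0 of 8 windows were apart, against 2.18% of genes. Within the 3 pairs of same-numbered libraries the Musk window was higher with dox by 2, 2 and 1 peaks and the Dok7 window by 2, 4 and 3, so 2 of 8 windows had all pairs in 1 direction, against 33.8% of genes. In equal-length lists this was 0 of 8, against 3.86%. All 7 merged windows together had 33 peaks with dox against 20, 36 against 16 and 39 against 35 in these pairs, and 3 pairs cannot give a two-sided exact permutation p below 0.25. Without DM no dox replicate 4, which had the longest list of its group, 7 of 8 windows (all but Chrne) were higher with dox in the deposited lists, where 52.0% of all genes were. Without DM +dox replicate 2, Chrne and Dok7 were higher (26.0% of genes called), and in equal-length lists Musk was lower (5.44%).

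No region of the windows was all-or-none with dox in DM, with 0 of 38 in the deposited lists (5.39% of all regions) and 0 of 18 in equal-length lists (1.61%). Without DM no dox replicate 4 the deposited lists gave 7, among them the Chrnd, Chrng and Rapsn promoters. Leaving out DM +dox replicate 2 gave 3, and leaving out DM +dox replicate 4 gave 1. In equal-length lists it was 1 without DM no dox replicate 4 (Rapsn promoter, higher) and 2 without DM +dox replicate 2 (Musk 10.4 kb upstream and 3.0 kb inside, both lower).

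Differentiation without dox gave window counts with means of 23.7 ± 10.02 (SD, n = 3) in DM and 23.75 ± 11.6 (n = 4) in GM. The Chrnd window alone was apart in equal-length lists, with 3 peaks in each DM no dox library and 2 in each GM no dox library. The third peak was the region 14.4 kb upstream, found in 3 of 3 DM no dox lists against 1 of 4 GM no dox lists, and with dox in 2 of 3 DM and 1 of 4 GM lists. The GM no dox list that held it, replicate 1, had no peak at the promoter of Eif4e2 in the same window. The other GM no dox lists and all DM no dox lists had one there, so the separation also rests on a promoter of another gene. The Chrnd call was 1 of 8 windows against 2.42% of genes, and in the deposited lists the count was 0 of 8 against 0.225%. The two-sided exact permutation p for Chrnd was 0.0571, the smallest that 3 against 4 libraries allow, and 1 after adjustment over all genes. The call on Chrnd was made in each of the 7 fits that left out 1 library, and it was lost with 10 kb windows and with all 16 libraries. Chrna1 (lower) and Musk (higher) joined it without GM no dox replicate 3, where 3.29% of genes were called, and Chrne (higher) without DM no dox replicate 3 (4.20%).

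The Musk region 3.0 kb inside the gene was all-or-none higher in DM no dox in equal-length lists, 1 of 18 regions against 2.03% of all regions. In the deposited lists 0 of 40 regions met the criterion, against 0.411%. The equal-length count was 2 without GM no dox replicate 1 (adding the Chrnd region 14.4 kb upstream) or without DM no dox replicate 3 (adding the Chrne upstream region). It was 3 without GM no dox replicate 3, which added the Dok7 upstream region (lower) and the region 12.9 kb upstream of Chrna1 (lower). In the deposited lists it was 1 without DM no dox replicate 3.

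With dox, differentiation was accompanied by loss of the region 19.1 kb upstream of Dok7 from the equal-length lists. It was in 4 of 4 GM +dox and 0 of 3 DM +dox lists, the 1 of 20 regions that was all-or-none, against 2.21% of all regions. In the deposited lists, where every library had a peak there, 0 of 46 regions were all-or-none (1.81%). Window counts did not separate: 0 of 8 in the deposited lists (2.63% of genes) and 0 of 8 in equal-length lists (2.48%), with a lowest adjusted p of 1 in the exact permutation test and 0 genes below an unadjusted 0.05, since 3 against 4 libraries cannot go below 0.0571. No window had all 3 same-numbered pairs in 1 direction, with 0 of 8 in the deposited lists (12.3% of genes) and 0 of 8 in equal-length lists (5.08%). Musk was lower without GM +dox replicate 4 (4.89% of genes called) or DM +dox replicate 4 (4.25%), and in equal-length lists without DM +dox replicate 2 (6.88%), while Chrna1 was higher without DM +dox replicate 2 in the deposited lists (5.42%). The equal-length all-or-none count was 2 without DM +dox replicate 2, adding the Musk region 10.4 kb upstream (lower). The deposited-list count was 1 without GM +dox replicate 1, 3 or 4 or DM +dox replicate 2.

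Peak height could be compared at the 10 window regions with a peak in all 14 libraries. Fold enrichment was taken on the log2 scale, each library was centred on its median over 11046 such regions genome-wide, and all 4 groups were fitted together in limma. Without centring, the median of all regions moved by 0.41 with dox in GM and by 0.49 with dox in DM, by 0.10 with differentiation without dox and by 0.19 with it, so the differences are relative to that shift. None of the 10 regions passed the Benjamini-Hochberg adjusted threshold of 0.05 in any comparison. Among them were a coding exon of Tmem102, an intron of Psmc3 and the promoter of Lrpap1, which are other genes of the windows. The Psmc3 region was the only one in the Rapsn window, and the Chrng and Chrne windows held none of the 10.

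The lowest adjusted p-values belonged to regions upstream of Dok7, Musk and Chrnd. At the Dok7 region 19.1 kb upstream the log2 difference of DM against GM was −0.42 without dox (SE 0.18, limma adjusted p = 0.359) and −0.46 with dox (SE 0.18, adjusted p = 0.388). At the Musk region 10.4 kb upstream it was −0.29 (SE 0.15, adjusted p = 0.469) and −0.30 (SE 0.15, adjusted p = 0.583). At the Chrnd region 14.4 kb upstream it was 0.41 without dox (SE 0.22, adjusted p = 0.492) and 0.10 with dox, and the dox difference in DM was −0.39 (SE 0.24, adjusted p = 0.661). Its difference without dox depended on the GM no dox libraries, at 0.24 when replicate 2 of that group was left out and 0.64 when replicate 1 was, and it did not pass the limma test in either fit (adjusted p = 0.74 and 0.282). At the Dok7 and Musk regions the values were below 0 in both arms, and none of these values passed the test. The arms share no library, but same-numbered +dox and no dox libraries deviated together in both media. The arms are therefore not independent.

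The constitutive promoters differed little. At the Chrna1 promoter the log2 differences were −0.07 (SE 0.15) with dox in GM, 0.11 (SE 0.17) with dox in DM, −0.15 (SE 0.16) with differentiation without dox and 0.03 (SE 0.16) with it. The Chrnb1 promoter gave −0.08 (SE 0.10), −0.18 (SE 0.12), −0.02 (SE 0.11) and −0.11 (SE 0.11), and the Dok7 internal start gave 0.08 (SE 0.13), 0.06 (SE 0.15), 0.07 (SE 0.14) and 0.04 (SE 0.14). The limma adjusted p-values of these 12 differences ran from 0.686 to 0.981.

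Across all regions limma called 0 with dox in GM (0.0%; 631 of 11046 at an unadjusted p below 0.05), 7 with dox in DM (0.0634%), 53 with differentiation without dox (0.48%) and 28 with differentiation with dox (0.253%), and 0 for the interaction of dox and medium (0.0%; 282 at an unadjusted p below 0.05). With the replicate number as a block the counts were 70 with dox in DM and 156 with differentiation with dox, and 0 of the 10 window regions. The median log2 difference of the 10 regions was −0.05, −0.013, −0.022 and −0.052 in the 4 comparisons, against −0.019, −0.03, 0.007 and −0.009 over all regions. The interaction gave an adjusted p of 1 at each of the 10 window regions.

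When the fragment pileup at the summit replaced fold enrichment, a choice made after the data were seen, differences at the Dok7 and Chrnd upstream regions passed. The Dok7 region was lower in DM, with a log2 difference of −1.01 without dox (SE 0.27, limma adjusted p = 0.0463) and −1.09 with dox (SE 0.27, adjusted p = 0.0231). The Chrnd region 14.4 kb upstream was higher in DM without dox by a log2 difference of 1.13 (SE 0.28, adjusted p = 0.0308). These were 2 of 10 regions without dox, where 2.64% of all regions passed, and 1 of 10 with dox, where 4.56% passed.

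**Figure D4:**
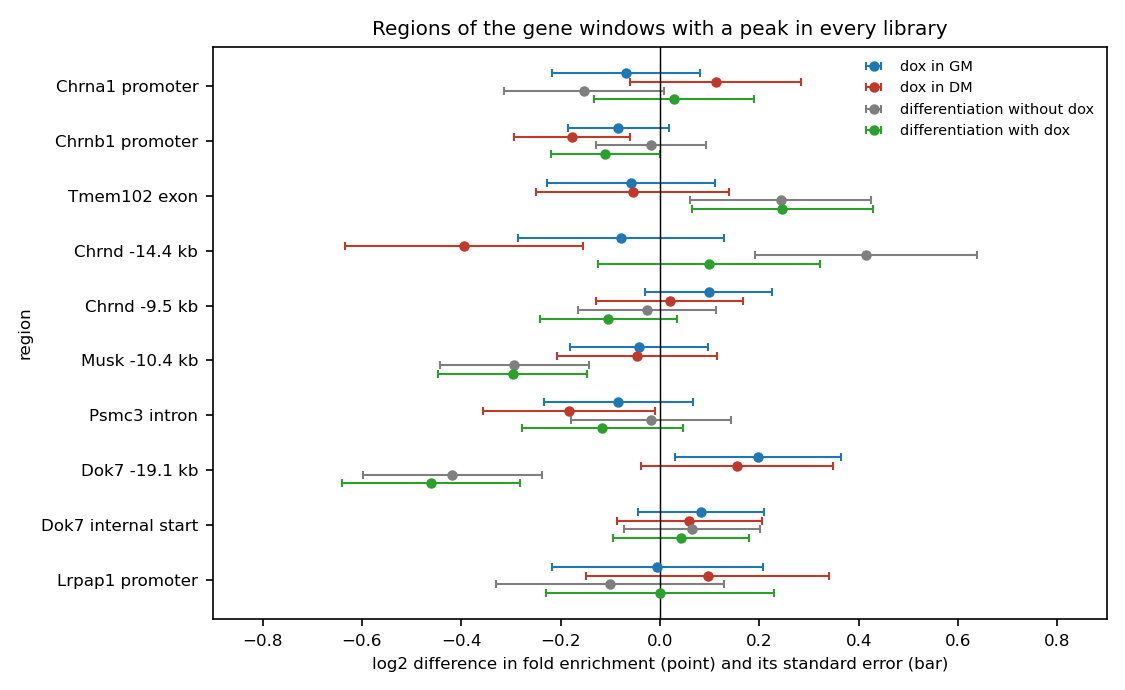
log2 difference in centred fold enrichment (x axis, point) with its standard error (bar) at the 10 window regions with a peak in all 14 libraries, for the 4 comparisons. The Dok7 region 19.1 kb upstream and the Musk region 10.4 kb upstream lie below 0 in both differentiation comparisons, and no value passed the adjusted threshold. The rows named for Tmem102, Psmc3 and Lrpap1 are regions of other genes in the windows.

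The other genes of the pathway, 45 in 5 lists, were counted in the same way. In the deposited lists 8 of 39 tested were higher with dox in DM without overlap, against 19.7% of all genes, and 0 in the other 3 comparisons. They included Macf1, a cytoskeletal linker, with 15, 17 and 20 peaks against 7, 6 and 11. Hdac4, from the list on activity-dependent repression of receptor genes, had 21, 17 and 20 against 12, 15 and 15. Col13a1, a collagen of the synaptic cleft, had 5, 4 and 4 against 0, 1 and 1. In equal-length lists 0 were apart in any comparison (of 31 tested with dox in DM). Promoters of the agrin-MuSK signalling list, which includes agrin (Agrn) and its receptor Lrp4, had a peak in all 14 libraries for 14 of 17 genes, the neuregulin and ETS list for 5 of 8, the synaptic cleft list for 1 of 5 and the repression list for 1 of 4. Among neuronal receptor subunits it was 0 of 11, with no promoter peak in any library for 9. The 8 genes themselves had 3 such promoters (Chrna1, Chrnb1 and Dok7) and 1 with none (Chrne).

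Motifs were searched on both strands within 100 bp of the summit of the strongest peak, and a match is a description of the letters only. CAGCTG was in 11 of 48 window regions (22.9%) against 19.9% of all regions, and in equal-length lists in 7 of 22 (31.8%) against 18.7%. Any E-box, CANNTG, of which CAGCTG is a special case, was in 62.5% against 68.1%. The N-box core CCGGAA was in 6 of 48 (12.5%) against 5.91%, and the AP-1 site TGANTCA in 12 of 48 (25.0%) against 31.8%. Of the regions with the N-box core, only the Chrnd promoter lay at or in one of the 8 genes. The others were the promoters of Eif4e2, Zbtb4 and Psmc3, a coding exon of Tmem102 and an intron of Prss56. The MEF2 core was in 2.08% against 2.73%, and CATTCC, the M-CAT element bound by TEAD factors, in 16.7% against 17.7%. In the RefSeq promoter table, which matched 6 of the 8 genes with 7 entries, CAGCTG was in 4 of 7 entries (57.1%) against 16.3% of 32851 promoters of the same length.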

How the data were processed

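The members and all gene and marker lists were chosen with earlier results of these data known. The authors ran the nf-core/atacseq pipeline on the ATAC-seq reads (mm10, blacklisted regions removed), with narrow peaks from MACS2 for every library on its own. The versions of the aligner and of MACS2 are not given in the sources used here. The deposited columns are a score, a ratio (fold enrichment against local background), and p-values and q-values as −log10. Lists were deposited at a q-value below 0.05. The score equals 10 times the −log10 q and was not used further.

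The fragment pileup at each summit and the background coverage were solved from fold enrichment and −log10 p, with whole-number pileups for at least 99.484% of peaks (relative tolerance 1e-05). Depth is otherwise unknown. Peaks that overlapped by at least 1 bp were merged into regions, and a peak belonged to a window that it overlapped. A promoter region had its summit within 1 kb of an annotated start. No 2 of the 16 lists were identical (0 of 120 pairs), and 0 peaks ran past a chromosome end of GRCm38. Window counts were compared for every coding gene by two-sided exact permutation tests of the difference in means with Benjamini-Hochberg adjustment. Fold enrichment was tested with limma 3.58.1 (R 4.3.3) with an intensity trend on log2 values, each library centred on its median, and scripts were tested on simulated data. Python 3.11.15, numpy 2.4.6, scipy 1.17.1, pandas 2.3.3 and matplotlib 3.10.9 were used.

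Named regions were those at a start site of the 8 genes, the region with the highest median enrichment per window, and each region called in a comparison; for other pathway genes, up to 3 per comparison and direction were named by lowest p and then largest difference. Other regions given were chosen after their values were seen. A gene of the marker lists is not reported here. Same-numbered libraries deviated together in the dox comparison of GM (correlations across regions of 0.167 to 0.276, 4 pairs), of DM (0.19 to 0.364, 3 pairs) and in differentiation with dox (0.191 to 0.463, 3 pairs), so the numbers were taken as pairs there. The choice went by the lowest correlation of a comparison and was made with the correlations known. In the GM dox comparison 6 of 8 libraries correlated best with their own number, and in DM and in differentiation with dox 6 of 6 did. The numbers come from the labels. Alternatives covered window width, ranking, a −log10 q of at least 3, list lengths, normalization, a replicate block, all 16 libraries and leaving out each library.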

Additional observations from a re-analysis of the deposited data

Results flagged for a closer look

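Single libraries stood apart from the other 3 of their group in 14 of 56 gene-window counts and centred values, by the gap of the extreme value relative to the range (Dixon's test at 95%); chance flags about 1 in 20 groups, and for small whole-number counts 3 equal values make any differing value stand apart. In the deposited lists the Chrna1 window held 4 peaks in GM +dox replicate 4 against 5 in the others, the Chrnb1 window 4 in GM no dox replicate 4 against 3, the Chrnd window 8 in GM +dox replicate 1 against 7, the Chrng window 6 in GM +dox replicate 1 against 5, and the Musk window 7 in GM +dox replicate 4 against 8. In the equal-length lists the Chrna1 window held 1 peak in GM no dox replicate 3 against 2, the Chrnb1 window 2 in GM +dox replicate 4 against 1, the Chrnd window 3 in GM +dox replicate 1 against 2, and the Chrng window 0 in GM no dox replicate 1 against 1. There the Chrne window held 1 peak in GM +dox replicate 4 against 0, the Musk window 2 in GM no dox replicate 3 against 1, the Rapsn window 1 in GM no dox replicate 1 against 2, and the Dok7 window 3 in GM +dox replicate 4 against 2. At the Chrna1 promoter the centred log2 fold enrichment was 0.29 in GM no dox replicate 1 and −0.164 to −0.111 in the other 3.

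Data outside the main comparisons also held peaks at these genes. The left-out library of DM +dox, replicate 1, had 15 peaks in the windows of 7 of the 8 genes (all but Chrne), 1.054 per 1000 of its 14236 peaks. The left-out library of DM no dox had 0 of 1287.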

How the results depend on the processing

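Of the alternatives for counts and summary values, 409 stayed within the tolerance (1 SD between libraries for window differences, a factor of 1.5 for counts) and 97 moved beyond it; of those for single regions, 102 kept side and direction and 3 now passed. The window differences, which passed no test, had the other sign in 15 of 104 alternatives, 12 of them within the tolerance. Difference in window peaks: with all 16 libraries it was −6.75 for differentiation with dox in the deposited lists, and 3.5 (dox in DM) and −1.75 (differentiation without dox) in equal-length lists; ranking by fold enrichment gave −2.33 (dox in DM) and −1.50 (differentiation with dox), and 10 kb windows 2.17 (differentiation with dox). Requiring every same-numbered pair in 1 direction, chosen after seeing the data, gave 1 window with dox in GM (Chrnb1) and 2 with dox in DM (Musk and Dok7) in the deposited lists. The Chrnd call for differentiation without dox was 0 windows with all 16 libraries or 10 kb windows. All-or-none counts in equal-length lists were 0 in both differentiation comparisons with all 16 libraries, and requiring summits within 250 bp, chosen after seeing the data, gave 1 region (downstream of Musk) with dox in DM. Leaving out 1 library gave window differences of 9.83 to 18.5 (dox in GM), 8.5 to 18 (dox in DM), −5.75 to 4.67 (differentiation without dox) and −3.33 to 1.0 (with dox) in the deposited lists, and 0.0 to 1.0, −1.0 to 0.67, 1.0 to 2.0 and 0.0 to 1.5 in equal-length lists. Windows apart ranged over 0 to 4, 0 to 7, 0 to 0 and 0 to 1 in the deposited lists and 0 to 1, 0 to 1, 1 to 3 and 0 to 1 in equal-length lists. All-or-none counts ranged over 1 to 3, 0 to 7, 0 to 1 and 0 to 1, and in equal-length lists over 0 to 1, 0 to 2, 1 to 3 and 1 to 2.

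Regions called by limma over the genome ranged over 0 to 4 (dox in GM), 0 to 8 (dox in DM, 7 with all 14 libraries), 1 to 66 (differentiation without dox) and 4 to 72 (with dox) when a single library of any group was left out. With dox in DM the count was 0 by quantile normalization, without centring, in equal-length lists, with all 16 libraries or with only the groups compared, 70 with the replicate block, 19 with a term for replicate numbers 1 and 2 against 3 and 4, and 13 on pileup. For differentiation without dox it was 29, 0, 1, 0 and 15 in the same order, 186 with the block, 103 with the term and 285 on pileup. For differentiation with dox it was 5, 1, 0, 0 and 69, then 156, 72 and 492. Dox in GM gave 1 on pileup. Window regions passed only on pileup, 2 in differentiation without dox (−1.01 at Dok7, 1.13 at Chrnd) and 1 with dox (−1.09 at Dok7). In differentiation without dox 1 pair of equal numbers correlated at 0.098, so the numbers were not taken as pairs there. Of its libraries 5 of 6 correlated best with their own number, against 6 of 8 with dox in GM, where the numbers were taken as pairs. The block changed no limma call in the windows. The cause was not tested for any of these changes. Placing each peak by its summit changes nothing by construction, and with all 16 libraries no window region had a peak in every library. Peak lists limit what can be seen: a region without a peak has fewer fragments than the calling limit, and the length of the shortest list sets that of the equal-length lists.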
